A study of Drosophila melanogaster with 3 samples.

Results

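Mitochondrial ribosomal protein genes were followed in RNA from larval brains of Drosophila melanogaster. The genes were taken from the deposited expression table as every row with a gene name beginning with mRpL (large subunit) or mRpS (small subunit), and 72 of the 13358 named genes met this rule. There were 3 libraries, 1 for each genotype, all from brains dissected at the third larval instar. In the control library the larvae were dBRWD3PX2/+ heterozygotes, so the PX2 allele was present in every library. dBRWD3PX2/PX2 homozygotes gave the single mutant library. Larvae homozygous both for PX2 and for the yem allele GS21861 (dBRWD3PX2/PX2, yemGS21861/GS21861) gave the double mutant library. BRWD3 is a WD-repeat and bromodomain protein, and yem encodes yemanuclein, a partner of the histone chaperone HIRA. The sources used here do not say what these alleles do to the RNA or how many animals were pooled.

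The mitochondrial ribosome makes the few proteins encoded by the mitochondrial genome, which are core subunits of the respiratory chain and of ATP synthase. Its RNA comes from the mitochondrial genome, but all of its proteins are encoded in the nucleus, translated in the cytoplasm and imported. Part of these proteins descend from the bacterial ribosome and part were added in the mitochondrial lineage. Larval neuroblasts rely on oxidative phosphorylation for their proliferation, and loss of mitochondrial ribosomal proteins in the fly is known to slow growth.

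Values are RPKM as deposited, reads scaled to transcript length and library size, and where a gene is given 3 values they stand in the order control, single mutant, double mutant. Each genotype has 1 library and hence no replicate error, so no test was run and every difference below compares libraries, not genotypes. The targeted gene BRWD3 had 29.1, 43.2 and 47.8 RPKM, and yem (yemalpha in the table) had 11.9, 8.04 and 15.6, each highest in the double mutant library. The 17 marker genes of neuroblasts, neurons and glia all had at least 1 RPKM in every library. Among them, Syx1A, moody and gcm were in rows that join genes. The 6 neuroblast markers summed to 90.8, 112 and 111 RPKM. The 6 neuron markers summed to 65.7, 77.9 and 113 RPKM and the 5 glia markers to 70.9, 62.2 and 83.6 RPKM. Markers of other tissues were present as well, and their summed levels also differed between libraries. Within a list, individual markers did not always follow the sum. The 6 fat body markers summed to 581, 213 and 1209 RPKM. The 6 gut markers summed to 113, 2.00 and 44.9 RPKM, with none of them at 1 RPKM in the single mutant library and LysS listed at 0 there. The 5 salivary gland markers summed to 159, 636 and 87.6 RPKM, and the 6 muscle markers to 33.4, 23.0 and 21.5 RPKM. The 5 hemocyte markers summed to 65.4, 105 and 163 RPKM and the 4 ring gland markers to 499, 495 and 416 RPKM. Of the hemocyte markers, NimC1 went down (7.94, 7.02 and 4.15 RPKM), and Hml was higher only in the double mutant (29.9, 29.4 and 94.1 RPKM). In RNA of a whole tissue, fewer cells of a type and less RNA per cell cannot be told apart, and the part of these markers in the ratios below was not tested. As an approximation from the smallest steps of the values, the libraries held about 2.86e+07, 2.22e+07 and 2.86e+07 reads. A median member then rested on about 1165, 942 and 1221 reads, a counting error of 2.93, 3.26 and 2.86 percent of its value. The member with the fewest reads in the single mutant library, mRpL41, had about 86, a counting error of 10.8 percent. These errors cover counting only, and in control they apply only if its values are not averages. In that column 38 of the 72 member values had more than 6 digits and all 38 ended in 5, as averages of 2 values would, while 0 values of either mutant column had more than 6.

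All 72 genes were present in every library, most of them at similar levels. The medians of the 3 libraries were 46.99, 49.8 and 48.9 RPKM, and 60, 54 and 63 of the 72 genes lay within 2-fold of the library's median. Between the quartiles the control values ran from 32.5 to 62.8 RPKM, those of the single mutant from 32.0 to 70.2 and those of the double mutant from 35.0 to 66.4. Large and small subunit genes had like levels, with medians of 46.1, 48.3 and 48.8 RPKM for the large and 50.7, 54.2 and 49.6 RPKM for the small subunit. The order of the genes was also much the same from library to library, with Spearman correlations of 0.91 between single mutant and control, 0.93 between double and single mutant and 0.96 between double mutant and control. These are over the 72 genes within pairs of libraries and describe levels, not ratios. For all 9693 genes they were 0.96, 0.97 and 0.97.

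**Figure D1:**
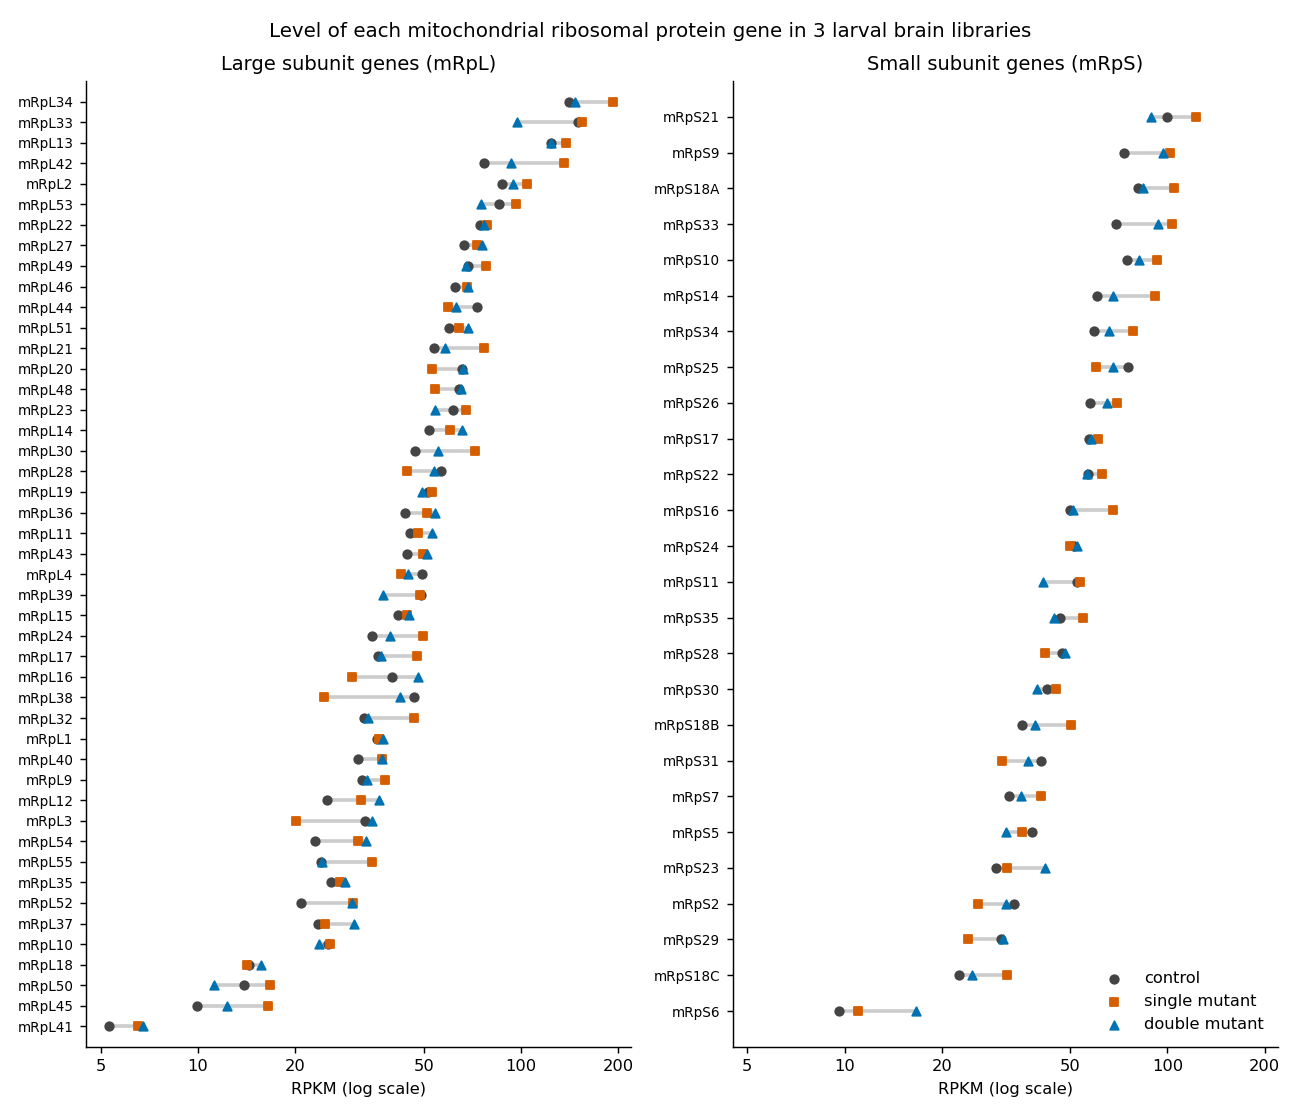
RPKM of each of the 72 genes (log scale) in the control (circle), single mutant (square) and double mutant (triangle) libraries, large subunit genes on the left and small subunit genes on the right, ordered by mean level. The grey bar joins the lowest and highest library, and mRpL38 has the longest bar, from 24.6 to 46.7 RPKM.

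The most abundant members came from both subunits. mRpL34 (2R, 11986497 to 11990108, build dm3 as for all positions below) encodes a very short protein with a bacterial relative and had 141, 192 and 147 RPKM. mRpL33 (X, 4215796 to 4216234) encodes another such protein and had 149.97, 154 and 97.3 RPKM, so the double mutant library stood below both others. mRpS21, of the small subunit platform, had 99.6, 122 and 88.9 RPKM. mRpL42, a large subunit protein known only from mitochondria, had 76.9, 136 and 93.4 RPKM. mRpL13 shared its row with CG10602 (124, 138 and 124 RPKM), so its own level cannot be separated. At the other end, mRpL41 (2R, 11103715 to 11105118) had 5.31, 6.53 and 6.77 RPKM, below every other member in every library. By mean level mRpS6 and mRpL45 came next, both described by role below. mRpL50, known only from mitochondria, had 13.9, 16.7 and 11.2 RPKM, and mRpL18 had 14.4, 14.2 and 15.7. The lowest and highest members thus differed 28.2-, 29.5- and 21.7-fold in the 3 libraries, although their proteins are parts of 1 particle.

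Ratios between libraries were computed as log2((a + 1)/(b + 1)) with 1 RPKM added, for 9693 genes that reached 1 RPKM in any library, and all 72 members passed this filter. The genes differed little. None was 2-fold higher or lower in any of the 3 comparisons. Of all genes, 2.7% stood 2-fold or more above control in the single mutant library and 3.6% as far below it. The double mutant library had 4.27% as far above and 1.48% as far below the single mutant, and 3.06% above and 1.62% below control. The highest of a member's 3 values exceeded the lowest by 1.05- to 1.90-fold, with a median of 1.28. This measure was not computed for all genes.

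In the single mutant library most of the genes were slightly higher than in control. Of the 72 genes 55 had ratios above 0 (76.4%, against 54.1% of all genes), with a median log2 ratio of 0.16 against 0.04 for all genes. These medians were 0.10 and -0.01 with each library divided by its median over genes, and 0.15 and 0.03 when rescaled without short RNA genes. The spread of the ratios was smaller than among other genes, with a standard deviation of 0.32 over the members and 0.59 over all genes. Over the 5953 genes whose mean level lay between the lowest and highest member it was 0.54. Past 1.5-fold upward were 3 members (4.17%, against 10.7% of all genes), mRpL42, mRpL45 and mRpL30. Past 1.5-fold downward were 2 (2.78%, against 9.46%), mRpL38 and mRpL3. mRpL42, mRpL38 and mRpL3 stayed past 1.5-fold in every alternative run that holds them, whereas mRpL45 fell short of it with 5 RPKM added, at a log2 ratio of 0.52. mRpL30 fell short of it with 5 RPKM added (0.57), with each library divided by its median (0.55) and after correction for length (0.49). Among the 5953 genes in the members' range of mean level the shares were 10.5% and 7.11%. That range, 6.21 to 160 RPKM, is much wider than the members' quartiles, so these genes are not matched in level. After subtracting the median of all genes of like transcript length, the members' median was 0.06, smaller but still positive.

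Between the libraries labelled double and single mutant the members' median was -0.08 against 0.04 for all genes, and 41 of 72 were lower in the double mutant. This sign depended on the scaling, since with the libraries rescaled without short RNA genes the medians were 0.15 for the members and 0.24 for all genes. With each library divided by its median they were -0.18 and -0.05, with 54 of 72 members below 0. The members' median lay below that of all genes as reported and under both of these scalings. After correction for transcript length the members' median was 0.01. Past 1.5-fold upward in the double mutant were 3 members (4.17%, against 11.2% of all genes), mRpL38, mRpL3 and mRpL16. mRpL16 had a log2 ratio of 0.58, just short, with each library divided by its median. Past 1.5-fold downward was 1 (1.39%, against 6.27%), mRpL33. Between double mutant and control the median was 0.06 against 0.07 for all genes, with 50 of 72 above 0 (69.4%, against 58.0%). This median became -0.09 when each library was divided by its median over genes, where that of all genes was -0.07. There only 24 of 72 members were above 0, against 4096 of 9686 genes. Rescaled without short RNA genes, the members' median was 0.28 and that of all genes 0.27. There 67 of 72 members were above 0, against 7803 of 9696 genes. As reported, 1 member was past 1.5-fold upward (1.39%, against 11.3%), mRpS6, and 1 downward (1.39%, against 4.85%), mRpL33. Rescaled without short RNA genes, 7 members were past it upward (9.72%, against 20.6% of all genes) and 0 downward (against 2.98%). The comparisons share libraries, so their values are given side by side and are not independent of each other.

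**Figure D2:**
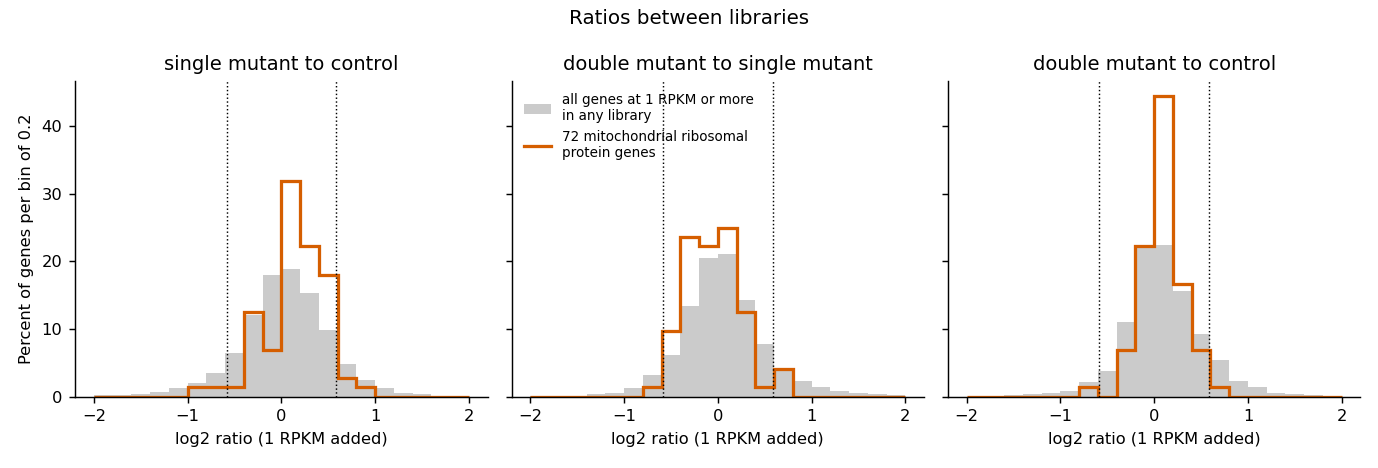
Percent of genes per bin of 0.2 log2 units in each comparison, for the 72 members (orange line) and for all 9693 genes (grey), with dotted lines at 1.5-fold. A larger share of the members than of all genes lies between the dotted lines, and the members' median is 0.16, -0.08 and 0.06 from left to right; 0.856%, 0.939% and 0.640% of all genes fall outside the plotted range.

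By library, 39 members (54.2%) were highest in the single mutant library and 24 (33.3%) in that of the double mutant, while 9 (12.5%) were highest in control. Among all genes the shares were 35.3%, 36.8% and 27.9%. The most frequent order was control lowest, double mutant between and single mutant highest, in 26 members (36.1%, against 21.3% of all genes). In 16 members (22.2%, against 18.9%) the values went up from control through the single to the double mutant. In 15 members (20.8%, against 35.0% of all genes) the single mutant library was the lowest.

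Around the peptidyl transferase centre, where peptide bonds are made, members did not share a direction. mRpL3 (X, 15655292 to 15656696), whose bacterial relative shapes this centre, had 32.9, 20.1 and 34.5 RPKM. Its single mutant value lay 1.64-fold below control, and the double mutant value 1.72-fold above the single mutant. mRpL16 (X, 1784331 to 1785313), which in bacteria helps to place the incoming tRNA, had 39.8, 29.9 and 48.1 RPKM and was likewise lowest in the single mutant library. mRpL2, a highly conserved protein of the large subunit core, had 87.3, 105 and 94.6 RPKM, highest in the single mutant library. mRpL27, whose bacterial relative reaches into the centre, had 66.8, 73.0 and 75.9 RPKM.

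The central protuberance, a crown on the large subunit that in mitochondria is built mostly of added proteins, held the member with the largest difference. mRpL38 (X, 14120323 to 14121983) had 46.7, 24.6 and 42.3 RPKM, a log2 ratio of -0.90 between single mutant and control. Both other libraries stood well above the single mutant, and from each other they differed by a log2 ratio of -0.14. None of the other 4 members placed here differed by as much, though mRpL48 and mRpL18 were also lowest in the single mutant library. mRpL40 had 31.2, 37.2 and 37.1 RPKM, mRpL46 had 62.4, 68.2 and 68.4, and mRpL48 had 64.1, 54.2 and 65.2. Of the 5 members, 3 were below control in the single mutant library and 2 above.

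Genes for the peptide exit tunnel and its rim stood above control in the single mutant library in 5 of 6 cases, near the 76.4% of all members. mRpL45 (3R, 18444204 to 18465082), which in mammals ties the ribosome to the inner membrane, had 9.95, 16.5 and 12.3 RPKM, with the single mutant 1.66-fold above control. mRpL24, an early assembly protein in bacteria, had 34.7, 49.7 and 39.3 RPKM, and mRpL17 had 36.1, 47.6 and 36.8. In both, control and double mutant lay close together and the single mutant above. mRpL23 had 61.8, 67.4 and 54.2 RPKM and mRpL22, a lining protein of the tunnel, had 74.5, 78.5 and 76.7. mRpL4, another lining protein, was the exception with 49.3, 42.7 and 44.7 RPKM.

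The stalk, which recruits translation factors, is represented by 3 genes. mRpL12 (3L, 8949891 to 8950684), tied in the fly to growth driven by Cyclin D, had 25.1, 32.0 and 36.3 RPKM, lowest in control. The double mutant value lay 1.44-fold above control. Its anchor mRpL10 had 25.3, 25.7 and 23.7 RPKM and mRpL11 had 45.4, 47.9 and 53.0, so that the 3 did not share an order of libraries.

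Among the other large subunit proteins with bacterial relatives, mRpL30 (X, 4541909 to 4543865) had 46.9, 72.1 and 55.4 RPKM, with the single mutant 1.54-fold above control. mRpL32 had 32.6, 46.6 and 33.7 RPKM, again with only the single mutant apart. mRpL20, needed early in bacterial assembly, went the other way with 65.9, 53.2 and 66.0. mRpL33, with the values given above, lay 1.58-fold lower in the double mutant than in the single mutant library and 1.54-fold lower than in control. Rescaled without short RNA genes, both of its ratios were under 1.5-fold, at log2 ratios of -0.42 and -0.40, and after correction for length the first was -0.51. mRpL15 (41.5, 44.4 and 44.9 RPKM) and mRpL19, which faces the small subunit (51.4, 53.2 and 49.4 RPKM), hardly differed. The least variable member of all was mRpL1, of the stalk that guides the leaving tRNA, with 35.7, 36.5 and 37.4 RPKM.

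Of the large subunit proteins known only from mitochondria, mRpL42 (2R, 5954153 to 5956206) had the largest ratio in the single mutant library, 1.77-fold above control. mRpL52 had 20.9, 30.1 and 29.9 RPKM and mRpL54 had 23.0, 31.2 and 33.0, both lowest in control. mRpL39 had 49.1, 48.7 and 37.4 RPKM, lowest in the double mutant. mRpL55, in a row with the kinase gene cdi that spans 50017 bp, had 24.0, 34.6 and 24.3 RPKM, which cannot be given to either gene. By origin, the 42 members with a bacterial homolog and the 30 known only from mitochondria had the same rounded median ratio of 0.16 in the single mutant library, with 34 and 21 members above 0.

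With 1 RPKM added, no small subunit gene of 26 reached 1.5-fold from control in the single mutant library. Their median ratio was 0.20, against 0.14 for the 46 large subunit genes. For the double against the single mutant the medians were -0.16 and -0.00. Both became positive (0.07 and 0.23) when rescaled without short RNA genes, where all genes had 0.24. With each library divided by its median they were -0.25 and -0.09, where all genes had -0.05. In the head, which moves with the tRNAs, 6 of 8 genes were higher in the single mutant, again near the members' share of 76.4%. mRpS14 (X, 19373414 to 19373950) had 60.5, 91.2 and 68.0 RPKM and mRpS33 had 69.1, 103 and 93.5, both just under 1.5-fold once 1 RPKM was added. mRpS9, which reaches the tRNA in bacteria, had 73.6, 102 and 96.7 RPKM. mRpS7, the first head protein in bacterial assembly, had 32.3, 40.6 and 35.2 RPKM and mRpS35 had 46.5, 54.7 and 44.5. mRpS31 (40.6, 30.7 and 37.1 RPKM) and mRpS29, a GTP-binding protein called DAP3 in mammals (30.4, 24.1 and 30.9 RPKM), were the 2 lower ones.

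In the body and platform, mRpS6 (3L, 4364554 to 4365243) was the member with the largest ratio between double mutant and control. It had 9.63, 11.01 and 16.7 RPKM, so the double mutant lay 1.73-fold above control. Its values are low, and rest on about 173, 154 and 299 reads, and with 5 RPKM added the log2 ratio was 0.57, short of 1.5-fold. mRpS11, which lies beside it in bacteria, had 52.4, 53.8 and 41.1 RPKM, lowest in the library where mRpS6 was highest. mRpS5, at the entry of the messenger RNA, had 38.1, 35.4 and 31.6 RPKM and was lowest in the double mutant as well. mRpS2 had 33.5, 25.9 and 31.6 RPKM, and mRpS23 had 29.4, 31.9 and 41.8.

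The S18 family has 3 genes in flies and mammals, and the mammalian S18A sits in the large subunit. All 3 were higher in the single mutant than in both other libraries. mRpS18A had 80.9, 104 and 84.0 RPKM, mRpS18B had 35.5, 50.4 and 38.9 and mRpS18C had 22.6, 31.8 and 24.8. Their log2 ratios between single mutant and control ran from 0.36 to 0.49, and none reached 1.5-fold. mRpS30, also a large subunit protein in mammals, had 42.4, 45.3 and 39.5 RPKM, and mRpS22, known only from mitochondria, had 56.7, 62.8 and 56.4. The members not named here lay within 1.5-fold between every pair of libraries.

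The ratios differed with transcript length. The members are short, with a median of 778.5 bases (327 to 2078) against 1923 for the 9166 genes with a known length. Between single mutant and control, 40 of the 47 members under 1000 bases were higher, with a median of 0.22, and 12 of the 22 longer ones, with a median of 0.04. For all genes the medians were 0.12 under 1000 bases and 0.03 above. mRpL38, mRpL3 and mRpL16, the 3 lowest members, have transcripts of 1399, 1243 and 1076 bases. Across the 69 members in rows of their own, Spearman's correlation of length with this ratio was -0.34, and across all genes it was -0.06. In the ratio of double to single mutant it was 0.18 across the members and 0.26 across all genes, and between double mutant and control -0.23 and 0.21. Genes are not independent replicates, all points come from the same libraries, and the part of length in the ratios of single members was not tested.

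**Figure D3:**
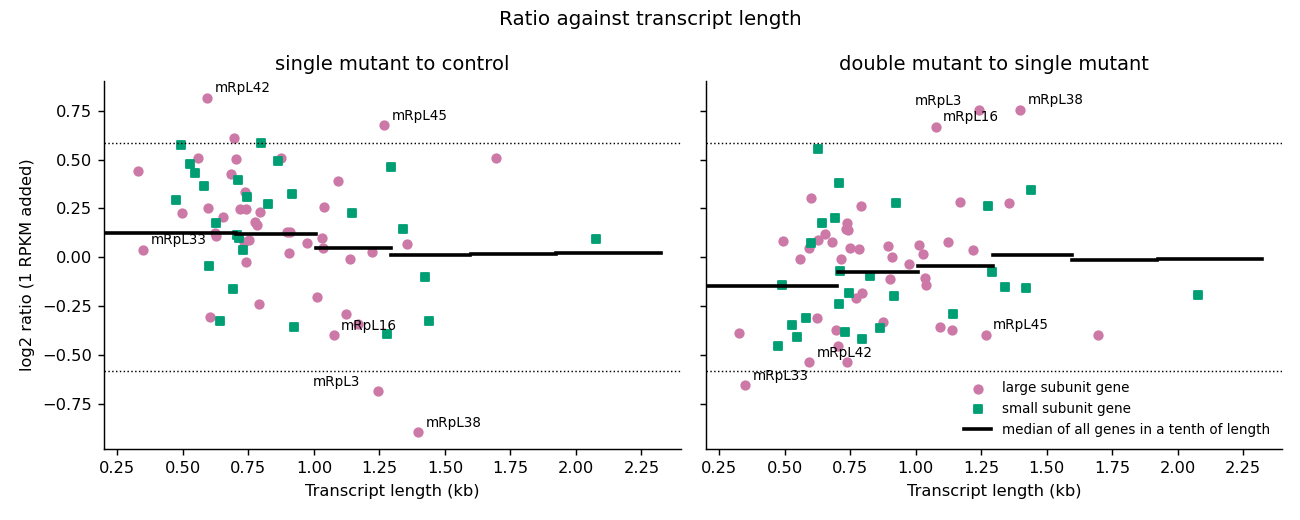
Log2 ratio (1 RPKM added) against transcript length in kb for the 69 members in rows of their own, single mutant to control on the left and double to single mutant on the right, with dotted lines at 1.5-fold. Of 10 equal classes of length, those that hold members have a black bar at the median of all genes in the class. For the shortest class it is 0.12 on the left and -0.15 on the right. The labelled members lie farther from 0 than those medians, apart from mRpL33 on the left.

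On the chromosomes the members were scattered, with 12 on 2L, 12 on 2R, 17 on 3L, 20 on 3R and 11 on X. X held mRpL38 and mRpL3, both past 1.5-fold downward in the single mutant library (2 of 11, against 8.85% of all X-linked genes). With mRpL16 it also held the 3 members past 1.5-fold upward in the double against the single mutant (3 of 11, against 12.9%). Other X-linked members went the other way, with mRpL30 past 1.5-fold upward and mRpS14 at a log2 ratio of 0.58 in the single mutant library, and mRpL33 past 1.5-fold downward in the double mutant. The X-linked members as a group had a median of 0.07 between single mutant and control, against 0.17 for the 61 on the autosomes, and 7 of 11 were above 0. All 1615 X-linked genes had a median of 0.07. The 2 pairs of members within 50 kb of each other did not share a pattern. mRpL3 and mRpS30 lie 23.4 kb apart on X, and only mRpL3 was low in the single mutant. mRpL24 and mRpL28, 28.6 kb apart on 2L, differed in direction, since mRpL28 had 56.4, 44.2 and 54.0 RPKM.

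The assembled rows were wider than the genes for some members, which bears on what their values hold. For 20 members the row spanned at least 3 times the length of the gene in RefSeq, among them mRpL45 (20879 against 1335 bases), mRpS31 (19659 and 1407), mRpL42 (2054 and 593), mRpS18B (6946 and 925), mRpS18C (6397 and 583) and mRpL34 (3612 and 390). Whether reads of neighbouring or overlapping genes entered these values was not tested. Without these 20 members the median between single mutant and control was 0.13, and 1 member in place of 3 was past 1.5-fold upward. mRpL38, mRpL3, mRpL16, mRpL33 and mRpS6 are not among them.

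Mitochondrial ribosome genes under other names had values in the same range. tko, the gene of protein S12 at the decoding site and known for its bang-sensitive mutant, had 71.2, 110 and 84.4 RPKM, with a log2 ratio of 0.62 between single mutant and control. bonsai, the gene of protein S15, had 35.95, 38.5 and 33.4 RPKM. Rlc1, which RefSeq now calls mRpL47 and which was added after its values were seen, had 37.1, 51.0 and 42.8 RPKM.

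The other proteins of mitochondrial gene expression did not share the small positive median of the ribosomal proteins in the single mutant library. The 10 translation factors had a median ratio of -0.10 between single mutant and control, with 4 above 0. Elongation factor EfTuM had 195, 165 and 153 RPKM, the initiation factor gene CG13163 (mIF3) had 19.2, 14.9 and 13.4 and CG6412 (mEFTs) had 78.3, 96.3 and 77.0. The 16 genes listed under aminoacyl-tRNA synthetases, which include Slimp (CG31133), had a median of -0.15, with 5 above 0. The 11 genes of mitochondrial DNA expression and replication had a median of -0.19, with 5 above 0. Of these 37 genes 0 reached 1.5-fold in any comparison, where 4.85% to 11.3% of all genes did in either direction. When rescaled without short RNA genes 1 did, upward between double and single mutant, and with each library divided by its median 1 did, downward between double mutant and control. The transcription factor TFAM had 84.1, 90.1 and 90.0 RPKM and the mitochondrial RNA polymerase mtRNApol had 8.16, 6.60 and 7.77. The 3 lists have longer transcripts than the ribosomal proteins, with medians of 1618.5, 2514.5 and 1529 bases, and whether these groups differ was not tested. Between the double and single mutant their medians were -0.02, 0.04 and -0.00, and between double mutant and control 0.03, -0.08 and -0.06. Rescaled without short RNA genes, all 6 of these were positive, from 0.13 to 0.24, but none exceeded the medians of all genes, 0.24 and 0.27. With each library divided by its median all 6 were negative, from -0.22 to -0.04, where all genes had -0.05 and -0.07.

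Nuclear genes for the subunits that work beside the mitochondrially made proteins had a larger positive median in the single mutant library. The 55 nuclear genes of the respiratory chain and ATP synthase had a median of 0.27 between single mutant and control, with 43 above 0, 8 past 1.5-fold upward (14.5%, against 10.7% of all genes) and 4 downward (7.27%, against 9.46%). sun, an ATP synthase subunit, had 37.1, 109 and 58.5 RPKM, and CG7580 (UQCR-Q), of complex III, had 39.4, 77.4 and 24.1. With 1 RPKM added, those 2 were the genes of the list past 2-fold, sun between single mutant and control and CG7580 between double and single mutant. Low in the single mutant library, as for mRpL38, were the 4 genes past 1.5-fold downward. The complex I genes CG9172 (80.8, 41.3 and 77.4 RPKM), mtacp1 (97.4, 51.5 and 103.6) and CG12079 (78.5, 47.5 and 95.2) were among them. The other was the ATP synthase gene ATPsyn-beta (890, 547 and 713 RPKM). Complex I did not share this direction, since its genes ND75 (76.6, 119 and 112 RPKM) and CG6463 (72.4, 110 and 100) were past 1.5-fold upward. For mtacp1 and CG12079 the plain RPKM of the double mutant was 2.01- and 2.00-fold that of the single mutant. The list's median was -0.12 for the double against the single mutant, or 0.11 when rescaled without short RNA genes, where all genes had 0.04 and 0.24. For the double mutant against control it was 0.09, or -0.06 with each library divided by its median, where all genes had 0.07 and -0.07.

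Cytoplasmic ribosomal proteins, whose genes begin with RpL or RpS, were far more abundant, with a median of 3267 RPKM in control, and many of their genes are known to host small RNAs, whose part in these levels was not tested. Their 84 measured genes had a median ratio of 0.21 for the single mutant against control, with 64 above 0. For the double against the single mutant it was -0.27, and -0.04 when rescaled without short RNA genes, where all genes had 0.24. For the double mutant against control it was -0.07, and 0.15 when so rescaled, where all genes had 0.27. Between single mutant and control 3 of them (3.57%) were 2-fold or more higher and 2 (2.38%) lower, close to the 2.7% and 3.6% of all genes. For the mitochondrial genome's own transcripts, none of the 15 names listed was found, and they were not analysed here.

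**Figure D4:**
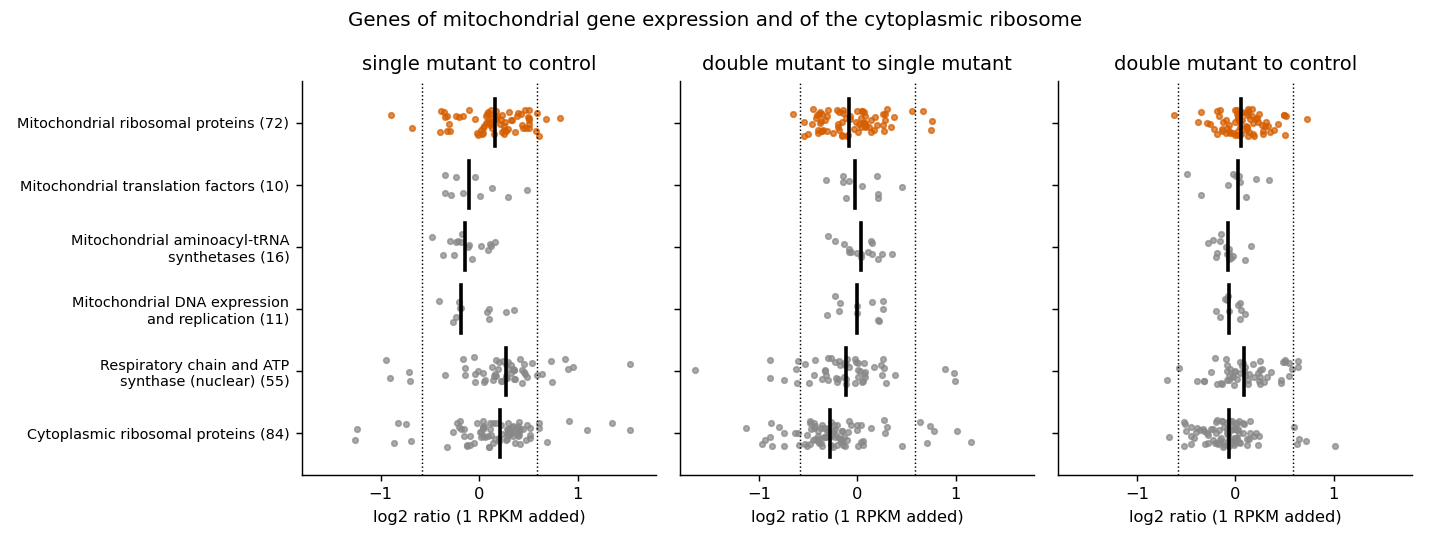
Log2 ratio (1 RPKM added) of each gene in 6 lists for the 3 comparisons, with the number of genes in brackets, a black bar at each median and dotted lines at 1.5-fold. In the left panel the medians are 0.16, -0.10, -0.15, -0.19, 0.27 and 0.21 from top to bottom.

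Regulators known to act on nuclear genes for mitochondrial proteins were mixed. ewg, the fly relative of nuclear respiratory factor 1, had 22.01, 29.4 and 29.6 RPKM. Ets97D, the relative of the GA-binding protein, had 14.3, 12.0 and 13.7. The growth regulator dm, the fly Myc gene, had 15.0, 23.4 and 22.5 RPKM and its partner Max 35.5, 59.0 and 45.4, with both lowest in control. crc, the fly ATF4 gene, had 189, 119 and 213 RPKM, lowest in the single mutant library. The cell cycle regulator E2f, which in the fly also acts on mitochondrial genes, had 13.5, 24.2 and 24.8 RPKM. Of the 10 regulators listed, 3 (E2f, Max and dm) were past 1.5-fold upward and 1 (crc) downward between control and single mutant, against 10.7% and 9.46% of all genes, and counts this small allow no reading of the list. The 11 mitochondrial stress genes had a median of -0.03 between single mutant and control, with 5 above 0 and 6 below. Past 1.5-fold upward was 1 (9.09%, against 10.7% of all genes), Xrp1, with 23.9, 48.0 and 37.3 RPKM. Past 1.5-fold downward were 2 (18.2%, against 9.46%). These were the chaperone gene Hsp60 (347, 192 and 328 RPKM) and Hsp22, in a row with Hsp67Bb (278, 180 and 192 RPKM).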

How the data were processed

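Brain RNA of 3 genotypes was sequenced after ribosomal RNA depletion with an Ion Total RNA-Seq kit, per the labels' protocols. Reads were processed with TopHat2 2.0.9, Cufflinks 2.0.2, Trimmomatic and FastQC on dm3, per the submitters' processing notes. Settings and the use of strand were not given in the sources used here. A table of RPKM values, with 15229 rows of assembled loci, was deposited by the authors. Of these, 1769 rows without a gene name, 1 with a missing value and 101 repeats of a name (highest mean kept) were left out. All 72 member names were on a single row each, 3 of them in rows that join genes. Positions are those of the table, in dm3. Transcript lengths are from Ensembl release 115 (BDGP6) and gene lengths and newer symbols from RefSeq, which matched all 72 members, without use of their coordinates. Ratios had 1 RPKM added and a filter of 1 RPKM in at least 1 library. With 1 library per genotype no test was run. Approximate reads come from the step of 1 read in RPKM times length, read off 3989 genes with a single transcript over 1 kb, as 0.03 to 0.04 in control and double mutant and 0.04 to 0.05 in the single mutant. Members and lists were chosen with earlier results of these data known, and the groups by place in the ribosome with the values known. Named genes are those at either end of the level and of each ratio (5 each), plus members fixed for their role; other genes of the lists are named where they were at least 1.5-fold apart or as examples, after their values were seen. Alternatives were another number of RPKM added (0.1 and 5), no filter or 5 RPKM, division by library medians, rescaling without short RNA genes, leaving out joined rows, summing the rows of a name, subtracting the median of genes of like length (in 10 classes) and, chosen after seeing the data, leaving out members in wide rows. The ratio code was tested on simulated data. Python 3.11.15, pandas 2.3.3, numpy 2.4.6, scipy 1.17.1 and matplotlib 3.10.9 were used.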

Additional observations from a re-analysis of the deposited data

How the results depend on the processing

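Members 2-fold apart numbered 0 in each comparison under all 10 alternatives, 9 of them planned. A median was taken as moved past 0.1 log2 units, since no spread between replicates exists. Of 156 summary values under an alternative, 13 moved. Dividing each library by its median gave a median of -0.090 between double mutant and control (0.0595 as reported) and 4 members at least 1.5-fold lower between double and single mutant (5.56%, against 8.31% of all genes; 1 as reported). Rescaling without 244 short RNA rows (factors 0.955, 0.947 and 1.11 for control, single and double mutant) gave medians of 0.15 for the double against the single mutant and 0.28 for the double mutant against control, where all genes had 0.24 and 0.27. There 5 members were at least 1.5-fold higher and 0 lower between double and single mutant (6.94% higher, against 19.4% of all genes), and 7 and 0 between double mutant and control (9.72%, against 20.6%). Correction for transcript length gave a median of 0.0588 between single mutant and control and 0 members at least 1.5-fold lower between double and single mutant. Adding 5 RPKM left 1 member at least 1.5-fold higher between single mutant and control and 0 between double mutant and control. Leaving out members in wide rows, chosen after seeing the data, left 1 between single mutant and control. Of 2082 ratios of single members under an alternative, 121 crossed 1.5-fold or changed sign, and 0 of those past 1.5-fold changed sign. Correction for length needs a known length, so it kept 9 of the 11 mitochondrial stress genes and 9 of the 10 regulators. On these the stress median was 0.18 (single mutant against control) and -0.13 (double against single mutant). For the regulators it was -0.25 (single mutant against control). As reported, with all genes of each list, these medians were -0.03, 0.01 and 0.04. The shifts therefore mix the loss of genes with the correction, and their parts were not separated. The causes were not tested. No paired analysis was possible because each genotype has 1 library, and no library could be left out. mRpL41 had the largest counting error of the members, 9.33 to 10.8 percent.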
